A study of Drosophila melanogaster with 8 samples.

Results

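RNase H1 contact with chromatin was mapped by Targeted DamID in wing discs of late *Drosophila melanogaster* larvae (L3), and 263 of its peaks are described here, which kept exactly the same ends in control and ecd1 discs but were taller in control. They were chosen from 8597 control and 9559 ecd1 peaks as those with the same chromosome arm, start and end in both lists (1801 peaks) and a larger height in the control list. That is 14.6% of the identical-end peaks. A further 1530 of these peaks were taller in ecd1 and 8 had equal heights, so on the heights as deposited the 263 go against the direction of most of their kind. The 2 lists were made separately, and that majority depends on their scale: 930 of the 1801 (51.6%) were taller in control with ecd1 heights scaled by the ratio of the medians, and 867 (48.1%) by rank within each list. The heights of both lists made this choice. They are given as a description, and no test of them was run.

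Control larvae carried UAS-LT3-Dam-RNase H1 driven by *nub* (nub>), which is active in the wing-forming part of the disc. A heat-sensitive tub-Gal80 served to repress the construct at 25 °C, and how fully it did so cannot be seen in these data. The ecd1 larvae carried the same constructs together with ecd1, an allele of *ecdysoneless* whose product fails when larvae are warmed. The gene has roles in ecdysone synthesis and in pre-mRNA splicing. Both genotypes spent 24 h at 29 °C from day 6 after egg laying and were dissected on day 7. The same shift thus served to induce the construct and to inactivate the mutant protein. Each genotype had 3 libraries of Dam-RNase H1 and 1 of Dam alone (8 in all). The deposited files hold 1 peak list per genotype, so heights come without an error between replicates, and sequencing depth is unknown.

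In DamID a bacterial adenine methylase fused to a protein marks GATC sites near the places that the protein contacts, and methylated fragments are then amplified and sequenced. RNase H1 recognises RNA:DNA hybrids, the core of R-loops, in which a nascent transcript pairs with its template and leaves the other DNA strand unpaired. R-loops form at transcribed genes and are known to become more frequent when RNA processing is disturbed. Height is the authors' score of a peak on an unstated scale. Whole discs were dissected, so a change in the share of cells with contact and a change in contact per cell cannot be told apart. Contact with DNA is not expression: of 17 marker genes of the wing disc and of other tissues, 10 had a control peak over their span and 13 an ecd1 peak, including all 5 wing disc markers (*nub*, *vg*, *ap*, *rn* and *sd*) in both lists. Markers of other tissues also had peaks in both lists: *twi* and *Mef2* (myoblast), *trh* (trachea), *srp* (blood) and *elav* (neuron).

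Most of the 263 differences were small. The control minus ecd1 height had a median of 0.12 (quartiles 0.06 and 0.25) and ran from 0.01 to 1.09. It reached 0.1 in 157 peaks, 0.2 in 86, 0.3 in 45 and 0.5 in 11, and was at most 0.05 in 62 (23.6%). On the other side, 871 of the 1530 peaks taller in ecd1 (56.9%) differed by at least 0.3. The zone around the threshold was evenly filled, with 11 peaks taller in control by 0.01, 8 equal and 13 taller in ecd1 by 0.01. Just inside it lay *grn*, a GATA factor gene (3R:8177452-8178151, 0.73 in control and 0.72 in ecd1), and *trn* (3L:13117767-13120957, 1.53 and 1.52). Just outside it lay a peak of *Dmtn* and *gpp* (3R:6404191-6406338) with 1.79 in both lists.

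In control discs the 263 peaks were much like the other identical-end peaks, with a median height of 1.08 (quartiles 0.865 and 1.37) beside 1.01 (0.76 and 1.33) for those taller in ecd1. In ecd1 discs their median was 0.88 (0.69 and 1.15) beside 1.40 (1.07 and 1.78). Placed in its own list, the median member stood at percentile 67.5 of all control peaks but at 32.5 of all ecd1 peaks, whereas peaks taller in ecd1 stood at 61.3 and 69.4. The rule fixed the direction of these contrasts.

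**Figure D1:**
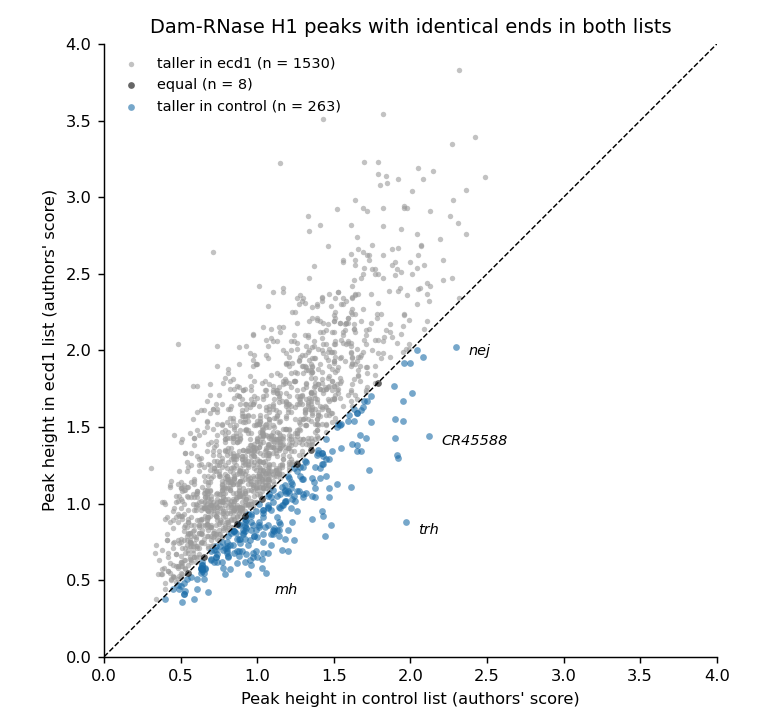
Each point is a peak with identical ends in both lists, with its height in the control list on the x axis and in the ecd1 list on the y axis (authors' scores); the dashed line marks equal heights. The 263 blue points lie below the line, close to it in most cases, and *trh* (1.97 and 0.88) lies farthest from it.

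The peak with the largest difference covered the end of *trh* (*trachealess*), which encodes the bHLH-PAS factor that specifies tracheal cells, and 2 non-coding genes, *CR45378* and *CR43969* (3L:392074-395108). Its height was 1.97 in control and 0.88 in ecd1, which is percentile 98.8 of the control list and 32.5 of the ecd1 list. Its surroundings did not show the same drop. The control list has a peak of 0.61 at 1366 bp to the right, and the ecd1 list 0.91 at the same distance. To the left, inside *trh*, control peaks of 1.69 and 1.32 faced a single ecd1 peak of 1.83 that overlapped both. In the authors' deposited tables the right part of the member (3L:393688-395108) is higher in control by 1.19, as is a stretch inside *trh* by 0.71 (3L:381917-382717). The authors' deposited tables also hold stretches higher in ecd1 on either side of the member, by 0.75 (3L:384181-386410) and 0.56 (3L:396479-398560).

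Next came a peak assigned to the non-coding gene *CR45588*, 2037 bp from its span (3R:5055775-5058031), with 2.12 in control and 1.44 in ecd1. A peak of identical ends 7554 bp away had 2.06 in control and 2.41 in ecd1. A peak over the end of *CG10289* (*fmt* in RefSeq) and 337 bp from *CG7376* (3L:6173189-6173911) had 1.44 and 0.79. The very same interval stands in the authors' deposited table as higher in control by 0.65. At the other end of the gene (3L:6165299-6165662), where only ecd1 has a peak, the authors' deposited table has a stretch higher in ecd1 by 1.08. At *Cht6*, a chitinase gene, and its antisense gene *CR45185* (X:10045556-10047577) the heights were 1.92 and 1.30. Inside *GluClalpha*, a glutamate-gated chloride channel gene, and 912 bp from *CG11659* (3R:19773140-19774547) they were 1.91 and 1.32. The other members among the 15 largest differences were a peak inside *smash* (3R:4704227-4705558) with 1.42 and 0.95, a peak in no gene (3L:26314494-26314921) with 1.24 and 0.76, and those described next.

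Further members with large differences, or leading their gene list, lay at genes of varied roles. *Irbp*, the gene of the Ku70 subunit that binds broken DNA ends and a different gene from *Irbp18*, shared a peak with *Ranbp9* (*Ipo9* in RefSeq), an importin gene (3R:11411878-11412938), of 1.73 in control and 1.22 in ecd1. At *mh*, which encodes the orthologue of the DNA-protein crosslink protease Spartan (X:15474621-15476025), heights were 1.06 and 0.55. At *l(2)gl*, a cell polarity gene and tumour suppressor close to the tip of its arm (2L:17585-18817), they were 1.61 and 1.11. *Neto*, which encodes an auxiliary subunit of glutamate receptors, had 1.36 and 0.90 (X:13463903-13464784). A peak over *hep*, the JNK kinase gene, and *lic*, a p38 kinase kinase gene (X:13089300-13091269), had 1.23 and 0.88. A peak listed in control discs for *grp*, the Chk1 checkpoint kinase gene, and for *squ* (2L:16679755-16681331) had 1.14 and 0.83. This *grp* peak is in neither class, as *Irbp* leads the DNA damage list, and was picked after its values were seen. Of these 6 peaks, *mh* alone held a stretch that the authors' deposited table calls higher in control, by 0.65 (X:15474819-15475872). That table gives 1 region per gene, and the one of *Neto* lies elsewhere (X:13527254-13528362, 0.78). A missing entry at a peak therefore does not show that no such stretch exists.

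The surroundings of these peaks often went the other way. Around *mh* the control list has peaks of 1.40 at 2062 bp and 0.90 at 5773 bp, and the ecd1 list has 1.89 and 1.75 in their places. Next to the peak at the end of *CG4753* (*Agpat4* in RefSeq, 3L:16380602-16381378, 1.20 in control and 0.69 in ecd1), a peak 2546 bp away inside *roq* had 1.64 and 2.59. By *CR43713* (2L:5428900-5429792, 1.90 and 1.43) a peak 426 bp away had 0.70 and 1.40. At *hep* the control list has no other peak within 10000 bp, while the ecd1 list adds peaks of 0.54 and 0.50 inside the gene. *Irbp* and *l(2)gl* differed from these. The only other peak with an ecd1 partner nearby was slightly taller in control there too, with 0.64 and 0.57 at 8198 bp from the *Irbp* member and 0.61 and 0.51 at 9393 bp from the *l(2)gl* member. A nearer control peak, of 0.8 at 1441 bp from the *l(2)gl* member, had no ecd1 peak in its place.

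**Figure D2:**
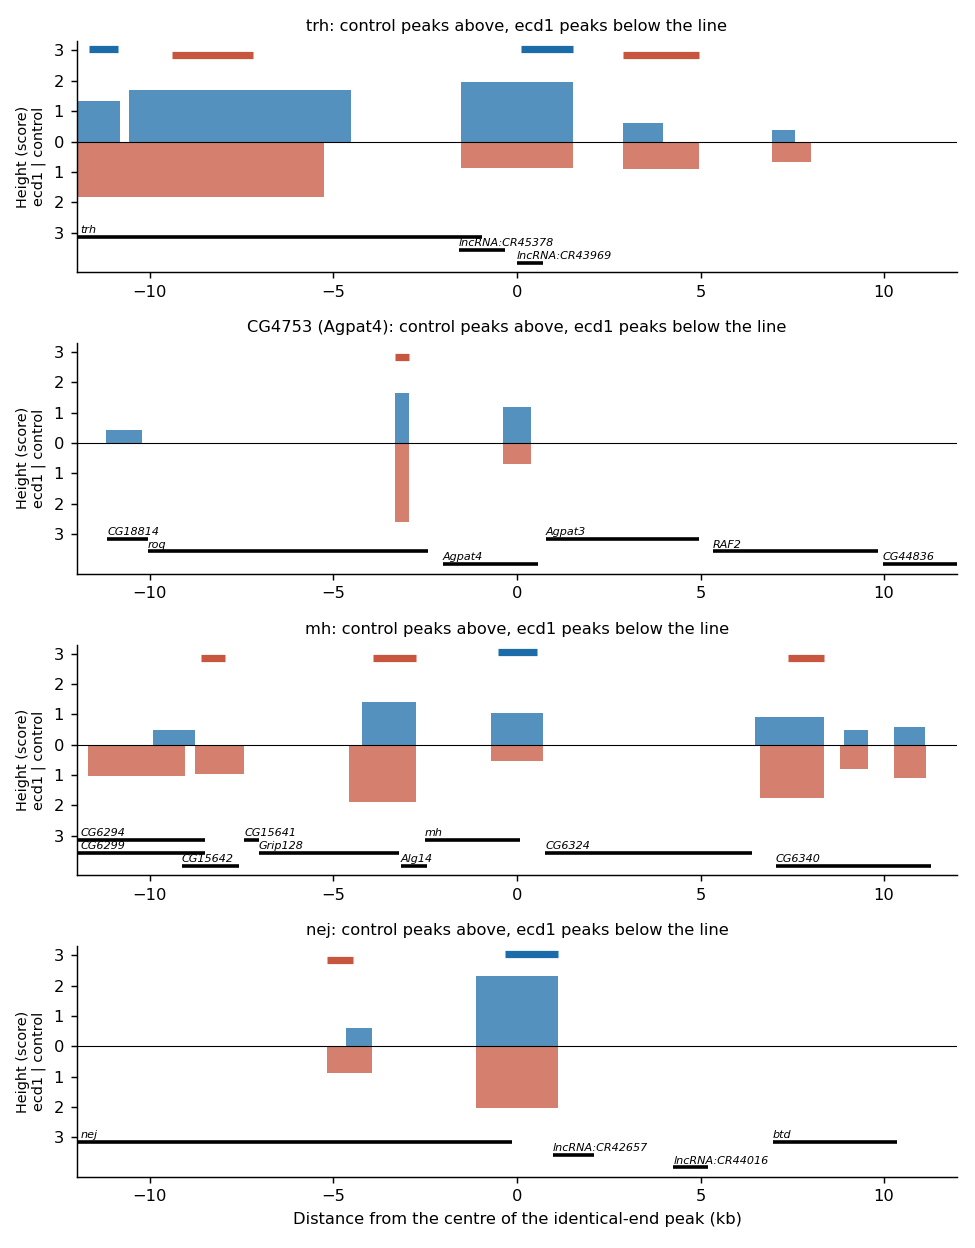
Blocks show the extent and height (authors' scores) of control peaks, above the line, and ecd1 peaks, below it, against the distance in kb from the centre of 4 members; bars at the top are regions that the authors' table gives as higher in control (blue) or ecd1 (red), and black bars are RefSeq gene spans. The central peak is taller in control in each panel, while the nearest peak to the left of *mh* goes from 1.40 to 1.89 and that left of *CG4753* from 1.64 to 2.59.

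Counted over all members, the neighbourhood looked like that of any identical-end peak. Within 10 kb, 223 of the 263 had another control peak, and the nearest such peak had a taller partner in ecd1 in 148 cases (66.4%, 95% Wilson interval 59.9 to 72.2, counting error only). It was taller in control in 31 (13.9%) and had no ecd1 partner in 41 (18.4%). For peaks taller in ecd1 the shares were 71.0%, 13.1% and 15.4% of 1298. The nearest identical-end peak was also taller in control for 38 of the 263 (14.4%, interval 10.7 to 19.2), near the 14.6% that all identical-end peaks give, and for 243 of the 1530 others (15.9%). Members lay scattered among peaks taller in ecd1, at a median distance of 21202 bp from the nearest identical-end peak. Outside the peak but within 5 kb of it, the authors' deposited tables hold a stretch higher in ecd1 for 108 members (41.1%, interval 35.3 to 47.1) and one higher in control for 40 (15.2%). Beside peaks taller in ecd1 the shares in the authors' deposited tables were 35.0% and 16.7%.

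The 10 tallest members differed by 0.04 to 1.09, the latter at *trh*. The tallest control peak of the set lay over the end of *nej*, the gene of the CBP histone acetyltransferase, and *CR42657* (X:9686102-9688317), with 2.30 in control and 2.02 in ecd1. Peaks of 2.08 and 1.96 beside *Asap* (2R:8113449-8113976), 2.04 and 2.00 at *EMC8-9* and *CG3499* (*YME1L* in RefSeq, 2R:22881919-22883442) and 2.00 and 1.92 at *Nc73EF*, *Cpr73D* and *Obp73a* (3L:16954627-16957237) were nearly level. So was one of 1.96 and 1.92 at *APC10*, a subunit of the anaphase-promoting complex, *CG4853* and *CG4866* (2R:17517746-17518683). A peak of *myo* and *ey*, the Pax6 gene, on chromosome 4 (4:694987-697261) had 1.95 and 1.67. The ecd1 list adds a peak of 1.26 inside *ey* (4:703371-705157) with no control peak there. The remaining tall members were a peak inside *CG9380* (2R:25188622-25190371) with 2.01 and 1.72 and one over *ssp6* (3L:6075045-6076995) with 1.95 and 1.54.

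**Figure D3:**
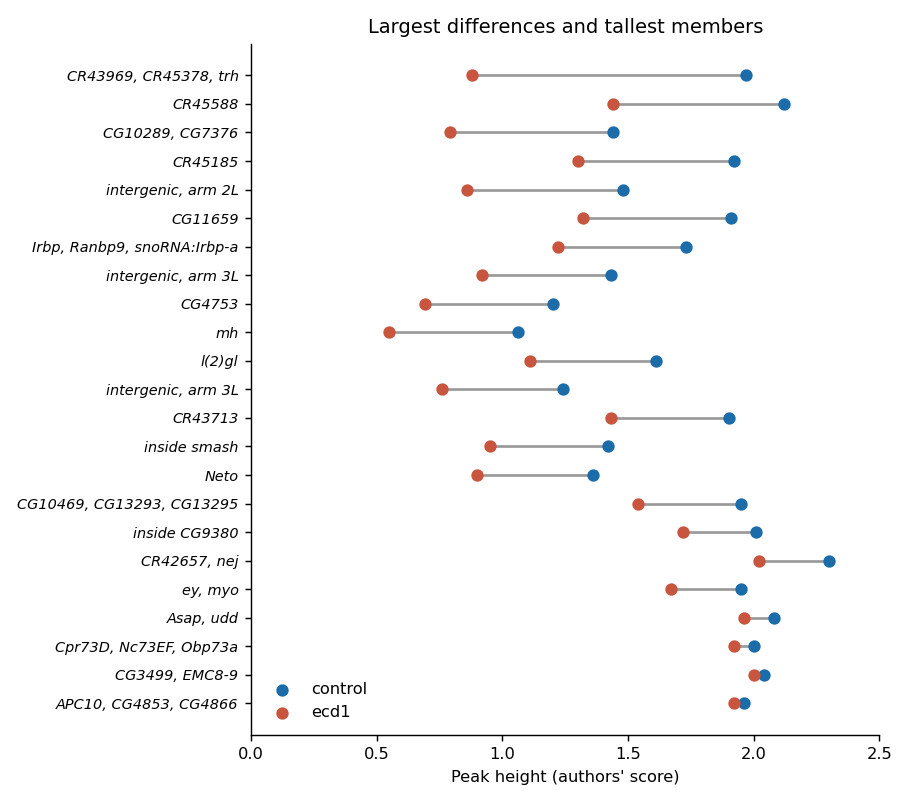
Heights (authors' scores) in control, blue, and ecd1, red, of the 15 members with the largest difference and the 10 tallest, 2 of which are in both sets, labelled by the authors' gene tables or, where these give none, by the RefSeq span. The gap is widest at *trh* (1.97 and 0.88) and narrowest at *CG3499* and *APC10* (0.04).

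The authors' own comparison of the genotypes touched few of these peaks. By the authors' deposited tables, 26 of the 263 (9.89%) met a region higher in control by at least 1 bp, beside 2.61% of all identical-end peaks. In the authors' deposited table, stretches where ecd1 is higher met 2 members, at *SF1* and at *elgi* and *CG17032*, beside 31.1% of all identical-end peaks. The remaining 236 met neither. These tables make the same contrast as the heights and list 1 region per gene and direction, so they add no independent support.

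Where a region higher in control was listed, it usually covered part of the peak and stood above the whole-peak difference. In the authors' deposited table these regions had heights of 0.38 to 1.35, with a median of 0.61, while the whole-peak differences of the same 26 peaks had a median of 0.315. The regions covered a median of 46.5% of the peak, 25 of 26 exceeded the whole-peak difference and 1 equalled it. Regions were listed for being higher in control, which favours values above the whole-peak difference, so this is a description. The widest separation was at *nej*: the right part of the peak (X:9686896-9688317) has 1.35 on the control side of the authors' deposited table, although the whole peak differed by 0.28. Inside *GluClalpha* by *CG11659* the region at the right end (3R:19774233-19774547) has 1.09 in the authors' deposited table, where the whole peak differed by 0.59.

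The peak of *SF1*, a gene for a splicing factor that binds the branch point and *P5cr-2* (3R:17539170-17540779) held regions of both directions. It was chosen for this after its values were seen. The whole-peak heights were 1.20 in control and 1.18 in ecd1. Within it, by the authors' deposited tables, ecd1 exceeds control by 1.01 at 3R:17539558-17540019 and control exceeds ecd1 by 0.65 at 3R:17540206-17540779. No other member met regions of both directions.

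**Figure D4:**
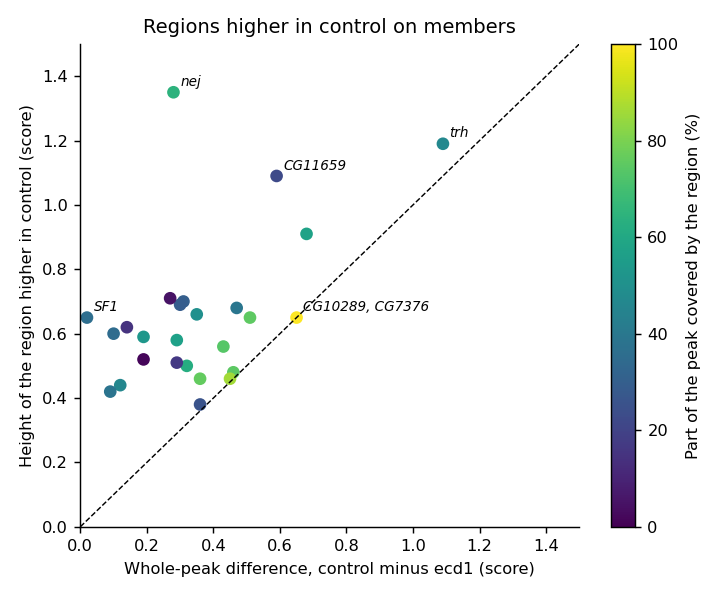
Each point is one of the 26 regions higher in control that meet a member, with the whole-peak difference (control minus ecd1, authors' scores) on the x axis and the height of the region in the authors' table on the y axis; colour gives the percentage of the peak it covers and the dashed line marks equality. All points but the one at *CG10289* and *CG7376*, where both are 0.65, lie above the line, and *nej* lies highest (1.35). The choice of regions higher in control favours points above the line.

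The gene tables name 298 genes at 171 of the 263 peaks, with up to 5 genes at 1 peak. Of the 92 peaks without a gene in them, 63 overlap a RefSeq gene span and 29 lie in none. Among the latter are a peak of 1.48 in control and 0.86 in ecd1 (2L:1805078-1806588), with no other peak of either list within 10000 bp, and one of 1.43 and 0.92 (3L:6042590-6043852). Protein-coding genes made up 256 of the 298 (85.9%), beside 83.3% of the 1812 genes at peaks taller in ecd1. There were 21 lncRNA genes (7.05%, beside 8.39%), 6 antisense RNA, 6 tRNA, 2 snoRNA and 2 miRNA genes by RefSeq type. The midpoint of a member lay within 500 bp of a gene end in 35.4% of cases (95% Wilson interval 29.8 to 41.3), inside a gene away from its ends in 44.9% and in neither in 19.8%, beside 34.4%, 47.8% and 17.7% for peaks taller in ecd1.

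For 53 of the 298 genes (17.8%), at 45 of the 263 peaks, the control table lists the member and the ecd1 table lists a different peak. At peaks taller in ecd1 this held for 179 of 1835 gene listings (9.75%). The peak listed in ecd1 was taller there than the member in 36 of the 53 cases (67.9%, beside 55.9% at peaks taller in ecd1), and the median gap between both was 3916 bp. Members were chosen for a lower height in ecd1, which bears on both shares, so these are a description. *trh*, *CR45185*, *grp*, *ey* and *esc*, a Polycomb repressive complex gene, were among them. For *grp* the ecd1 table lists a peak of 2.27 (2L:16682749-16683024), and for *ey* one of 0.81 (4:716673-718372). The *esc* member (2L:11834091-11834968, 1.25 in control and 1.02 in ecd1) lay 4686 bp from the gene, and the ecd1 table lists a peak of 1.56 at 2L:11828742-11829458. The reverse, a member listed in ecd1 and another peak in control, applied to 15 genes (5.03%, beside 11.4% at peaks taller in ecd1).

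Genes with a member were listed 90 times in the ecd1-higher part of the authors' deposited tables (30.2% of 298), beside 58.4% of all 2109 genes at identical-end peaks. The control-higher part of the authors' deposited tables lists 65 (21.8%), beside 18.5%, and 25 genes stand in both. *reb*, *RapGAP1*, *trh*, *nej* and *esc* were among these 25 and were chosen from the list after it was seen. For *esc* the heights in the authors' deposited tables are 0.73 on the control side (2L:11822224-11825179) and 1.09 on the ecd1 side (2L:11828742-11829458).

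Gene groups were read against the 14.1% of all 2109 genes at identical-end peaks that lay at a peak taller in control, with a median control minus ecd1 height of -0.29. All group counts follow the authors' gene tables, which give 1 peak per gene, so members inside other genes go uncounted. By RefSeq span, uncounted members overlapped *fz* (3L:14342600-14348789, 1.07 in control and 0.99 in ecd1) and *csw* (X:2096186-2097225, 1.52 and 1.13). Others overlapped *ds* (2L:677025-679425, 1.04 and 0.80, and 2L:710910-711642, 0.88 and 0.86). These genes were picked after their values were seen. Of the signalling and patterning genes at identical-end peaks, none of 5 Notch, 3 Dpp/BMP and 10 ecdysone response genes lay at a member, and 1 each did among 9 Wingless (*ebd2*), 6 Hedgehog (*nej*), 4 EGF and FGF (*cic*, a repressor of EGF receptor targets), 8 wing selector (*grn*), 5 Hippo (*l(2)gl*), 5 insulin and TOR (*Pi3K92E*), 8 JNK (*hep*), 9 cell death (*Buffy*, a Bcl-2 family gene) and 4 JAK/STAT genes (*Socs44A*). The ecdysone list is not complete. Genes outside it that lay at members included *Eig71Ej* and *Eig71Ek*, named as ecdysone-induced genes (3L:15660706-15661246, 0.88 in control and 0.87 in ecd1). Another was *shd*, a gene of ecdysone synthesis (3L:14609613-14612729, 1.38 and 1.24). By RefSeq span, members also overlapped *ftz-f1* (3L:18768136-18769217, 1.09 and 0.73), *Blimp-1* (3L:5632652-5633545, 1.07 and 0.97) and *Oatp74D* (3L:17488613-17491778, 1.18 and 1.02). The ecdysone count leaves these out. All of these genes were picked after their values were seen. Heights were 1.17 in control and 0.99 in ecd1 at *ebd2* (3L:21346074-21347687), 0.91 and 0.83 at *cic* (3R:20280132-20281563), and 1.28 and 1.24 at *Pi3K92E*, a PI3 kinase gene (3R:20633576-20636394). The JNK genes had a median difference of -0.97, so *hep*, at 0.35, stood on the opposite side from its group. *Socs44A* and *coil*, the coilin gene, shared a peak of 1.39 in control and 1.32 in ecd1 (2R:8125227-8127682), and *Buffy* had 0.87 and 0.77 (2R:11686147-11687857).

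Members of nuclear and genome lists were *Irbp* and *grp* among 4 DNA damage genes, *Top1*, the topoisomerase I gene, among 3 RNA:DNA hybrid and export genes (X:15322565-15323231, 0.73 and 0.65), and *esc* among 3 Polycomb and Trithorax genes. These groups are small. None of the 8 spliceosome, 4 cell cycle, 6 heat shock and 2 Xrp1 and stress genes that these lists hold at identical-end peaks lay at a member. The lists are not complete: *SF1* and *APC10*, described above, are in none of them and lay at members, as did *Klp61F*, a mitotic kinesin gene, with *Psf1*, a gene of the GINS replication complex (3L:1245312-1247249, 1.26 in control and 0.95 in ecd1). Members also overlapped *Sf3a2*, a spliceosome protein gene (3L:12812824-12815388, 1.07 and 1.05), and *Psf2*, another GINS gene (2L:4386965-4388087, 1.42 and 1.33). *Klp61F*, *Psf1*, *Sf3a2* and *Psf2* were picked after their values were seen. By RefSeq span, which the authors' tables do not use, members lay inside *Prp16*, a splicing helicase gene (X:14217194-14219173, 1.74 in control and 1.53 in ecd1), and inside *ftz-f1*, a nuclear receptor gene (3L:18768136-18769217, 1.09 and 0.73). Both were picked, after their values were seen, from the 63 members that overlap a RefSeq span but have no gene in the authors' gene tables.

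Genes of the translation machinery were near the background. Of 30 tRNA genes at identical-end peaks 6 lay at a member, of which *tRNA:Arg-TCG-2-1*, *tRNA:Arg-TCG-3-1* and *tRNA:Ser-CGA-1-2* share 1 peak (X:14014323-14015677, 1.20 in control and 0.83 in ecd1). The counts were 4 of 31 for snoRNA and scaRNA genes, 2 of 13 for cytosolic ribosomal protein genes (*RpS25* and *RpL37A*), 1 of 9 for mitochondrial ones (*mRpS10*) and none of 2 for translation factors. Near-identical copies of tRNA genes may share reads. *RpS25* shared its peak with *ZnT86D*, a zinc transporter gene (3R:11213870-11215903, 0.88 and 0.69), and by the authors' deposited table control is higher by 0.59 over part of it (3R:11214661-11215740). *mRpS10* and *Art3*, an arginine methyltransferase gene, shared a peak of 1.62 and 1.39 (3R:15228894-15229952).

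Among the remaining lists, 29 of 248 non-coding, 100 of 777 CG-numbered, 2 of 15 microRNA (*mir-1004* and *mir-4957*), 1 of 17 cuticle and chitin (*Cpr73D*), 1 of 14 cytoskeleton and adhesion (*fra*, the netrin receptor gene) and 1 of 2 trachea, blood and fat body genes (*trh*) lay at a member. None did among 2 glycolysis, 2 neuron and glia, 3 myoblast and muscle and 2 snRNA genes, and the 1 gene of the transgene list at an identical-end peak. Counts again follow the authors' gene tables, so the *Cht6* member is not among the cuticle and chitin genes. By RefSeq span a member also overlapped *twi* (2R:23007879-23009840, 1.05 in control and 0.85 in ecd1), which was picked after its values were seen. Proneural and histone genes had no identical-end peak. At *mir-1004* (2L:3767439-3768215) heights were 1.16 in control and 0.70 in ecd1. Control is higher by 0.48 over most of it (2L:3767635-3768215) in the authors' deposited table. The next control peak, 951 bp away, had 1.72 and its ecd1 partner 1.87, and a peak of identical ends at 6682 bp in *bowl*, a zinc finger gene, had 1.36 and 2.02.

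Taller control peaks were spread over all arms. They made up 12.3% of the identical-end peaks on 2L, 14.3% on 2R, 15.8% on 3L, 13.8% on 3R and 15.8% on X, and the Wilson intervals of all 5 held the overall 14.6%. On the small chromosome 4 the count was 6 of 19 (31.6%, interval 15.4 to 54.0), with differences up to 0.32, at *NfI*, a transcription factor gene (4:272575-273950, 0.95 and 0.63), and down to 0.03 at *onecut*, a homeobox gene (4:606565-607959, 0.85 and 0.82).

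Broad peaks were rarely taller in control. Of 251 identical-end peaks wider than 3000 bp, 16 were members (6.37%, interval 3.96 to 10.1), whereas the share lay between 14.1% and 18.1% in each class of smaller width. The *trh* peak, 3035 bp wide, was among the 16. The median width was 1292 bp (quartiles 808 and 1956.5) for members and 1425.5 bp (907.2 and 2371.5) for peaks taller in ecd1.

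**Figure D5:**
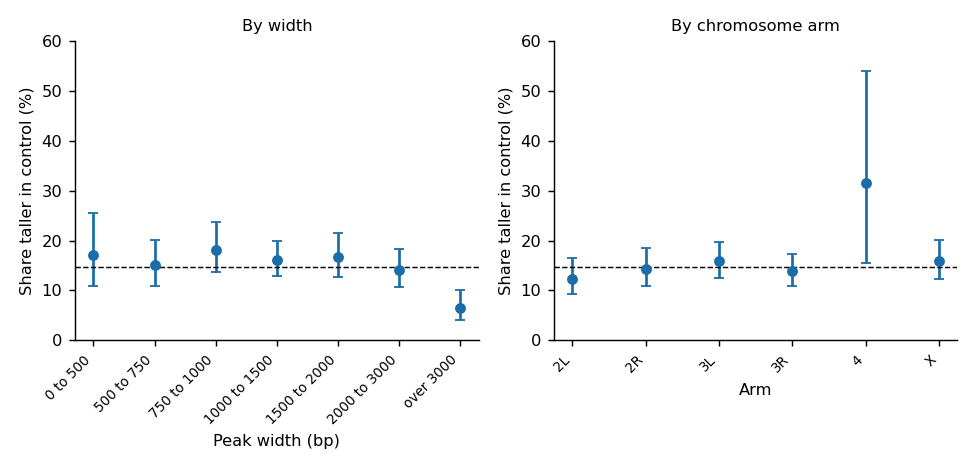
The percentage of identical-end peaks that were taller in control is shown by class of width in bp and by chromosome arm, with 95% Wilson intervals that cover counting error only; the dashed line is the overall 14.6%. Of the width classes, peaks wider than 3000 bp have the lowest share (6.37%), and chromosome 4 (31.6%) rests on 19 peaks.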

How the data were processed

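Wing disc DNA was sequenced as paired 50 bp reads after methylation-specific PCR, per the labels' protocols. Groups follow the genotype labels; for 1 library, Dam alone in ecd1, the description names Dam-RNase H1 instead. Coordinates are on BDGP6, per the submitters' processing notes; the sources used here name no aligner, peak caller or treatment of replicates and Dam-only libraries. The authors deposited 1 peak list per genotype with a height (a score of unstated scale) and an FDR (a q-value, below 0.01 throughout), tables of 1 peak per gene, and tables of regions higher in either genotype.

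Peaks were matched by arm, start and end with Python 3.11.15 and pandas 2.3.3; overlap means at least 1 bp. Genes came from the authors' gene tables by peak position, and 296 of 298 genes of members matched RefSeq (Release 6 plus ISO1 MT), which gave spans and types without strand. No genome sequence was used, so GATC sites, GC content and motifs were not analysed here. Matching, overlap and neighbour code was tested on simulated data. Shares have 95% Wilson intervals (SciPy 1.17.1). Without values per library, no test between genotypes was run. Regions are not replicates, so no test over regions was run.

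Members, lists and settings were chosen with earlier results of these data known. Named are the 15 members with the largest difference, the 10 tallest, the leading member of each of 37 gene lists with one, and those nearest the threshold. Some others, such as *grp* and *SF1*, were named after their values were seen. Alternatives were minimum differences, rescaled or ranked heights, looser matching of ends, a stricter FDR and other backgrounds and distances.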

Additional observations from a re-analysis of the deposited data

How the results depend on the processing

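The number of peaks taller in control depends on how the separately made lists are put on a common scale. Heights as deposited gave 263 of 1801. With ecd1 heights multiplied by 0.773, the ratio of the medians, 930 were taller in control, by rank within each list 867, and with the median difference of 0.28 added 884, a setting chosen after seeing the data. All 263 members were among them each time. For the scaled heights and the added difference this was fixed in advance, because both settings only favour control. A minimum difference of 0.1 left 157 and of 0.2 left 86, and an FDR under 0.001 in both lists left 101 of 1058 (9.55%). Pairs with a reciprocal overlap of 90% gave 400 of 2610 (15.3%) and of 50% gave 874 of 5497 (15.9%), close to the share with identical ends.

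Among peaks with a control height between the quartiles of the members, the median width was 1405 bp for members and 1665 bp for peaks taller in ecd1. With either flanking identical-end peak counted, 28.1% of the members had one taller in control (26.4% of the peaks taller in ecd1). Within 250 bp of a gene end lay 25.9% of the midpoints (22.3%). Both settings were chosen after seeing the data. The median difference, the share on a region higher in control, arm shares and the count of genes stayed within their intervals or within 1.5 times under the settings tried. No paired analysis was possible because the files hold no values per library, so leaving out replicates was not run either.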
